A study of Mus musculus with 5 samples.

Results

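Forkhead (Fox) transcription factors were examined in cortex of mouse embryos at stage E14.5, comparing its medial with its lateral part. The members were all gene symbols of the deposited counts that start with Fox, a letter from a to s and a number, which gave 44 of 34590 symbols. Polyadenylated RNA of 3 medial and 2 lateral samples was sequenced by a protocol that does not keep the strand. Both groups were wildtype, untreated, dissected from brain and of a mixed strain background. The labels do not tie the samples to different embryos, and every p-value therefore reflects the variation among these 5 samples alone, which may be technical.

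Forkhead factors bind DNA through a winged-helix domain in which a recognition helix lies in the major groove and reads the bases. FoxP factors act in cortical progenitors and neurons, FoxO factors are held in the cytoplasm when insulin and Akt signalling is active, Foxm1 drives the genes of mitosis, and Foxj1 drives the genes of motile cilia. Others mark cells around the neurons. Foxc1 acts in meningeal and mural cells, Foxf2 in pericytes and Foxq1 in brain endothelium.

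The stretch of coding sequence for the DNA-reading helix shows how far apart these genes are where the family is most alike. The 36 bases below run 5′ to 3′ on the coding strand and come from GENCODE M21 transcripts (GRCm38). They are shown for 5 members: Foxq1 and Foxn2, which passed the test described below, Foxf2, which neighbours Foxq1 in the genome, Foxm1 and Foxp4. Capitals mark bases that differ from the most frequent base over the 43 members in which the stretch was found.
Foxq1: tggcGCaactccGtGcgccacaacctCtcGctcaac
Foxf2: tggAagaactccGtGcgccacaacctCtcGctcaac
Foxm1: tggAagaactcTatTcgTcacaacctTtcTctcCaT
Foxn2: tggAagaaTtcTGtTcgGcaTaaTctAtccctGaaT
Foxp4: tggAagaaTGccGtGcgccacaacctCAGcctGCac
Foxf2 differed from the most frequent bases at 5 of the 36 positions, Foxq1 at 6, Foxm1 at 8, Foxp4 at 10 and Foxn2 at 11. The median over the 43 members was 6 differences and the highest number was 14. A read that could come from more than 1 member would be hard to assign, so runs of 50 bases were compared over whole transcripts. Only 6 of 44 members shared such a run with another member, and 3 of these had enough reads to test. Foxp2 shared 0.0120% of its runs with another member. Foxc1 shared 0.0690% of its runs with Foxc2, and the largest share was 0.993%, of Foxd4 with Foxd3.

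Gene reads came to between 27406370 and 36460274 in the medial libraries and between 56147129 and 66981952 in the lateral libraries. Levels are TMM-scaled counts per unit of library size (CPM), and 3 reads, taken as the floor that a count of 0 allows, equal between 0.0834 and 0.105 CPM in the medial and between 0.0456 and 0.0557 CPM in the lateral libraries. Intervals and floors cover counting error only. Medial library 1 stood apart from the others. The summed level of 10 markers of meninges was 303 CPM in it, 28.3 and 34.0 CPM in medial libraries 2 and 3, and 17.6 and 22.5 CPM in the lateral libraries. Crabp2, among these markers, ran the other way within the medial libraries, at 6.66 CPM in library 1 and 16.3 and 17.1 CPM in libraries 2 and 3. All 8 markers of cortical progenitors and neurons were present in every library, with summed levels from 1455 to 1927 CPM in medial and from 2254 to 2340 CPM in lateral libraries. Within them the neuronal marker Tbr1 was lower in medial cortex (log2 fold change −1.41, adjusted p = 0.0480) and the progenitor marker Emx2 was higher (1.32, adjusted p = 0.0296). Neurod6, of neurons (−1.45, adjusted p = 0.0565), and Sox2, of progenitors (0.64, adjusted p = 0.111), did not pass. Neither did Emx1 (0.36, adjusted p = 0.241), Pax6 (0.31, adjusted p = 0.132), Neurog2 (0.04, adjusted p = 0.902) and Eomes (−0.11, adjusted p = 0.595), so the markers of progenitors did not all move 1 way. Markers of ventral GABAergic neurons stood higher in the lateral libraries: 5 of 7 tested were lower in medial cortex, beside 5.1% of all genes. The 8 listed summed to between 2.69 and 15.7 CPM in medial and between 62.0 and 89.3 CPM in lateral libraries. Their part in the results was not tested. The forkhead results that rest most on medial library 1 are also given without it.

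Of the 44 forkhead genes, 21 had enough reads to test and 23 did not. Within the tested 21, 2 were higher in medial cortex (Foxj1 and Foxn2) and 1 was lower (Foxq1) in edgeR's quasi-likelihood test at an adjusted p under 0.05. These 3 are 14.3% of the members tested, beside 9.72% of all 16229 genes tested (4.62% higher and 5.1% lower in medial cortex), so the share lies near the background. A further 5 members had an adjusted p between 0.05 and 0.1, among them Foxo1, Foxf2, Foxm1 and Foxn3. In 13 of 21 members (61.9%) the medial and lateral libraries did not overlap, beside 53.3% of all genes tested. Medial cortex was the higher in 4 of these (26.5% of all genes) and the lower in 9 (26.8%). The median log2 fold change of the 21 was −0.15 (medial over lateral), beside 0.01 over all genes, with 6 positive and 15 negative values. At an unadjusted p under 0.05, 9 of the 21 passed, beside 32.2% of all genes. DESeq2 called 7 of the 21, Foxf2, Foxm1 and Foxo1 among them, beside 21.7% of all genes. Without medial library 1 edgeR called 4, Foxj1, Foxo1 and Foxq1 among them, beside 13.2%. A fit with a term for a tag in the deposited sample names called 9, Foxo6 and Foxn3 among them, beside 33.0%. The tag joins medial library 2 with lateral library 1 and medial library 3 with lateral library 2. Medial library 1 stands alone and does not inform the region effect of that fit. In edgeR 0 members were called without medial library 2, medial library 3, lateral library 1 or lateral library 2, in fits that called 0, 490, 18 and 0 of all genes tested, in that order. Scaled by library size alone there were 9 positive and 12 negative values. That scaling moved the median over all genes to 0.08, and Foxk1, Foxk2 and Foxo3 lay so close to 0 that their sign turned.

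**Figure D1:**
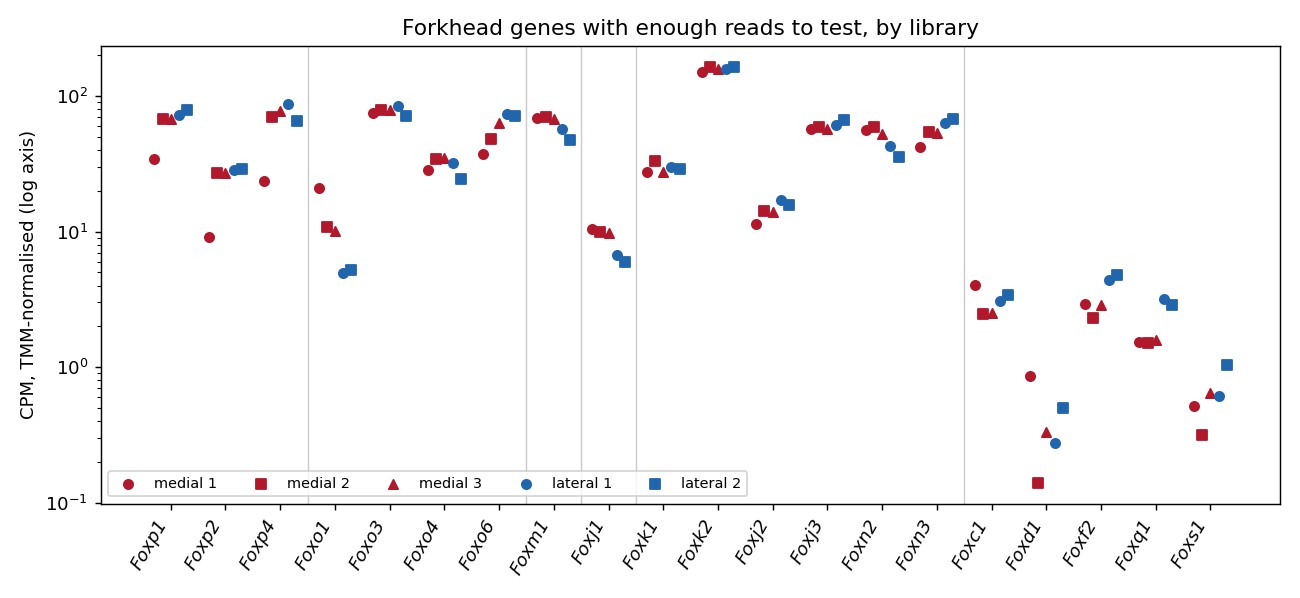
Level of the tested forkhead genes described here in each library, in CPM on a log axis, with 3 medial libraries (red) left of 2 lateral libraries (blue); marker shape gives the replicate number and grey lines part FoxP, FoxO, Foxm1, Foxj1, broadly expressed genes and genes of vessels and meninges. Medial library 1 (red circle) was the lowest of the 5 for the 3 FoxP genes, Foxo6, Foxk1, Foxk2, Foxj2, Foxj3 and Foxn3, and the highest for Foxo1, Foxj1, Foxc1 and Foxd1.

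Per kilobase of the longest coding transcript, Foxk2 averaged 31.3 RPKM in medial and 32.02 RPKM in lateral cortex, and Foxo6 19.0 RPKM in medial and 27.7 RPKM in lateral cortex. Foxd1 had the lowest level of the tested members, 0.0882 RPKM in medial and 0.0765 RPKM in lateral cortex. The transcript lengths are those of GENCODE M21, which need not be those behind the counts.

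Outside medial library 1 the FoxP genes differed little in level between the regions. Foxp2, a factor of deep-layer neurons, had 9.15 CPM in medial library 1, 27.3 and 27.1 CPM in medial libraries 2 and 3, and 28.3 and 29.0 CPM in the lateral libraries. Foxp1, which is found in neurons of several layers, had 34.6, 68.0 and 67.9 CPM in medial and 72.9 and 79.2 CPM in lateral libraries. Foxp4, a factor of cortical progenitors and neurons, had 23.4, 70.2 and 78.3 CPM in medial and 87.9 and 65.4 CPM in lateral libraries. In medial library 1 the 3 genes stood at between 0.316 and 0.509 of the mean of the other 2 medial libraries. None of the 3 passed: the log2 fold changes were −0.42 for Foxp1 (SE 0.29, adjusted p = 0.364), −0.43 for Foxp2 (SE 0.43, adjusted p = 0.534) and −0.42 for Foxp4 (SE 0.48, adjusted p = 0.589). Without medial library 1 the same quantity was −0.16 (SE 0.08), −0.08 (SE 0.09) and −0.05 (SE 0.15), so the values over all libraries rest on that library. The summed level of the markers of meninges was highest in the same library, though not that of Crabp2. The neuronal markers Tbr1 (56.0, 94.6 and 122 CPM in the medial libraries) and Neurod6 (214, 403 and 539 CPM) were lowest in it. The part of these markers in the result was not tested. In these bulk samples fewer cells that express a gene and less of its RNA in each cell cannot be told apart.

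**Figure D2:**
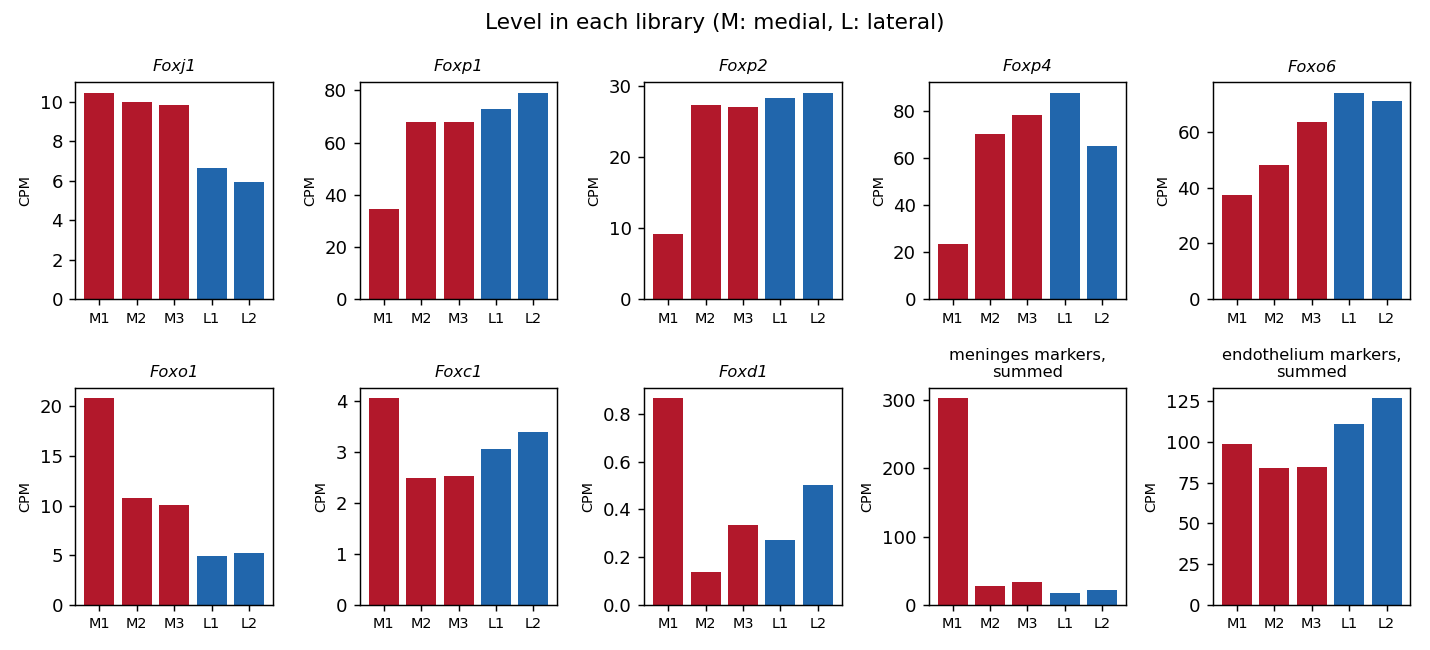
Level in CPM in each library of 8 forkhead genes and of the summed markers of meninges and endothelium, with medial libraries 1 to 3 (M, red) left of lateral libraries 1 and 2 (L, blue) and all axes starting at 0. In medial library 1 Foxp1, Foxp2, Foxp4 and Foxo6 were at their lowest while Foxo1, Foxc1, Foxd1 and the summed meninges markers were at their highest.

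None of the 4 FoxO genes, effectors of insulin and growth-factor signalling, passed over all libraries in edgeR. Foxo1 was measured at 20.8, 10.8 and 10.04 CPM in the medial libraries and at 4.92 and 5.197 CPM in the lateral ones. All medial libraries lay above both lateral libraries, and medial library 1 stood at 2.00 times the mean of the other 2. The log2 fold change was 1.45 (SE 0.36), larger in size than that of any other member tested, and just missed the threshold (adjusted p = 0.0548). Without medial library 1 it was 1.04 (SE 0.14) and passed (adjusted p = 0.0195), as it did over all libraries with DESeq2 (adjusted p = 0.000820). GENCODE M21 lists an antisense gene, Gm20402, over 7.78% of the exonic bases of Foxo1, and the files give it 0 reads in every library. Foxo6, which is enriched in brain, had 37.4, 48.0 and 63.5 CPM in medial and 73.9 and 70.8 CPM in lateral libraries. Its groups did not overlap, but the difference did not pass (log2 fold change −0.54, SE 0.21, adjusted p = 0.139). The log2 fold change of Foxo6 without medial library 1 was −0.38 (SE 0.14, adjusted p = 0.135). Foxo3, the member with the highest CPM of the 4, had 75.1, 78.8 and 78.6 CPM in medial and 84.1 and 71.8 CPM in lateral libraries (log2 fold change −0.01, SE 0.09, adjusted p = 0.964). Foxo4, an X-linked member, had 28.5, 34.1 and 35.0 CPM in medial and 32.1 and 24.4 CPM in lateral libraries (0.20, SE 0.16, adjusted p = 0.426). For both of these the groups overlapped and the test did not pass.

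Foxj1, the factor of motile cilia, was measured at 10.5, 9.998 and 9.84 CPM in medial libraries and at 6.67 and 5.94 CPM in lateral libraries. The medial libraries lay close together and above both lateral ones. It was higher in medial cortex (log2 fold change 0.68, SE 0.14, adjusted p = 0.0416) and kept the call without medial library 1 (0.65, adjusted p = 0.0410). Over all alternatives its adjusted p lay between 0.000491 and 0.287, and in edgeR the call was lost when any 1 of the other 4 libraries was left out, at log2 fold changes between 0.60 and 0.76. Of 5 tested markers of choroid plexus, which also holds ciliated cells, 1 was higher in medial cortex in edgeR, Otx2, and 3 with DESeq2. Over all genes 9.72% and 21.7% were called in either direction. The median log2 fold change of the choroid plexus markers was 2.39 (1.74 without medial library 1), with 4 of 5 positive over all libraries. The summed level of the 7 listed was 9.16 to 18.2 CPM in medial and 2.54 to 12.5 CPM in lateral libraries. Their part in the result was not tested. Foxm1, the mitotic factor, stood at 68.8, 70.2 and 67.7 CPM in medial and 57.3 and 47.3 CPM in lateral libraries. Every medial library lay above both lateral ones. Its log2 fold change of 0.40 (SE 0.10) did not pass in edgeR (adjusted p = 0.0599) but did with DESeq2 (adjusted p = 0.0134). The differences of Emx2 and Tbr1 given above run alongside. Of the other progenitor markers, which did not pass, Sox2 (0.64), Emx1 (0.36) and Pax6 (0.31) had positive log2 fold changes. Neurog2 (0.04) and Eomes (−0.11) differed little. The part of these markers in the result was not tested.

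Foxn2, a broadly expressed member whose role in cortex is little known, was higher in medial cortex. Its levels were 56.0, 59.3 and 52.9 CPM in medial and 43.2 and 35.5 CPM in lateral libraries, without overlap. The log2 fold change was 0.51 (SE 0.11, adjusted p = 0.0480). The call was close to the threshold and was lost without medial library 1 at the same fold (0.51, adjusted p = 0.0513). In edgeR it was also lost when any 1 of the other 4 libraries was left out, at log2 fold changes between 0.37 and 0.66, and over all alternatives the adjusted p lay between 0.000418 and 0.299. Foxn3, a repressor linked to cell-cycle checkpoints, had 42.4, 54.3 and 53.2 CPM in medial and 63.6 and 68.0 CPM in lateral libraries. It stood lower in all medial libraries, with a log2 fold change of −0.40 (SE 0.13) that did not pass (adjusted p = 0.0905). Without medial library 1 that value was −0.29 (SE 0.08, adjusted p = 0.0659). The paralogs Foxk1 and Foxk2, broadly expressed regulators of metabolism and autophagy, had overlapping groups. Foxk2 was measured at 151, 163 and 158 CPM in medial and 157 and 165 CPM in lateral libraries (−0.03, SE 0.07, adjusted p = 0.795), and Foxk1 at 27.3, 33.0 and 27.7 CPM in medial and 29.7 and 29.2 CPM in lateral libraries (−0.01, SE 0.11, adjusted p = 0.972). Foxj2 and Foxj3, broadly expressed activators, stood lower in every medial library but did not pass. Foxj2 had 11.5, 14.2 and 14.1 CPM in medial and 17.1 and 15.8 CPM in lateral libraries (−0.31, SE 0.14, adjusted p = 0.181). Foxj3 had 56.8, 59.4 and 57.6 CPM in medial and 61.6 and 66.7 CPM in lateral libraries (−0.15, SE 0.08, adjusted p = 0.2499).

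**Figure D3:**
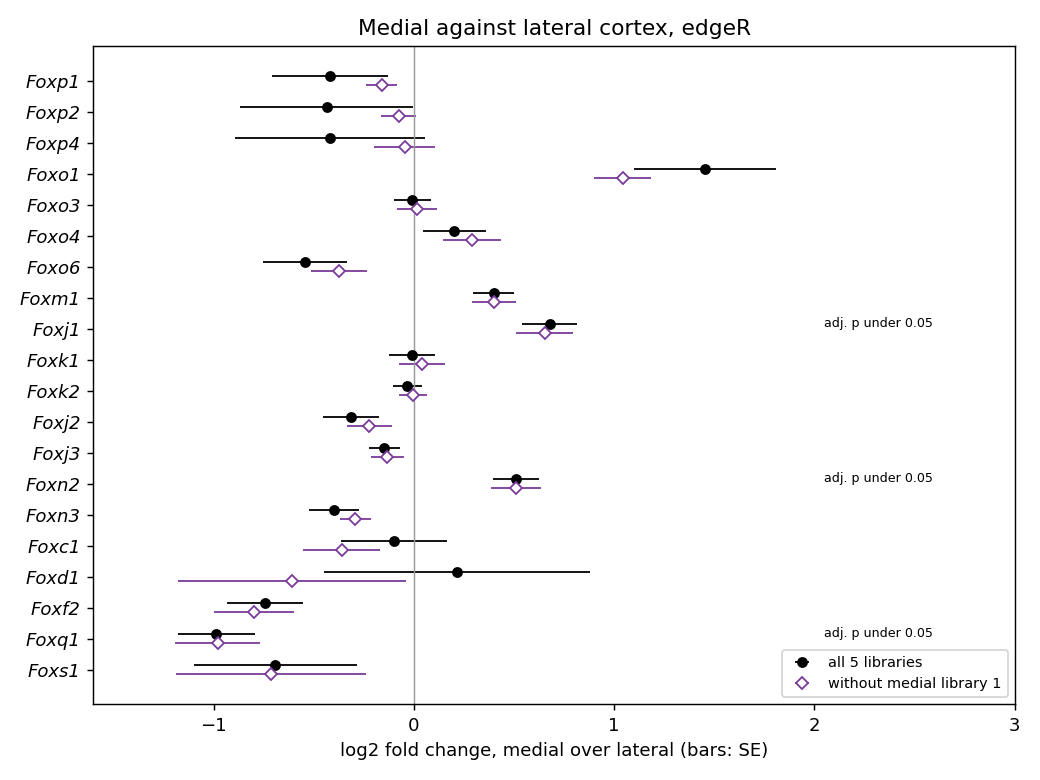
Log2 fold change of the tested forkhead genes described here, medial over lateral, with bars of 1 SE, over all 5 libraries (black circles) and without medial library 1 (open diamonds). Foxj1, Foxn2 and Foxq1 passed over all libraries. The FoxP values moved to near 0 without that library, and Foxd1 changed sign.

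Foxq1, a factor of brain endothelium, was the member that was lower in medial cortex. It was measured at 1.53, 1.503 and 1.58 CPM (44, 43 and 57 reads) in medial libraries and at 3.21 and 2.90 CPM (211 and 156 reads) in lateral libraries. The medial values lay close together and below both lateral values. The log2 fold change was −0.99 (SE 0.19, adjusted p = 0.0383) and −0.98 without medial library 1 (adjusted p = 0.0396). In edgeR the call was lost when any 1 of the other 4 libraries was left out, at log2 fold changes between −1.06 and −0.91. Over all alternatives the adjusted p lay between 0.00475 and 0.266. In GENCODE M21 the gene A530084C06Rik, on the other strand, covers 66.1% of the exonic bases of Foxq1, and reads from that shared stretch cannot be assigned to a strand. That gene was itself listed at 1, 7 and 4 reads in medial and 16 and 21 reads in lateral libraries. How the counting treated reads from the shared stretch is not given. They may have been left out or counted for either gene.

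Foxq1, Foxf2 and Foxc1 follow each other on mouse chromosome 13 with no other protein-coding gene between them in RefSeq (GRCm38.p6). Foxf2, needed for brain pericytes in the mouse, had 2.95, 2.31 and 2.89 CPM in medial and 4.36 and 4.77 CPM in lateral libraries. Its groups did not overlap, and its log2 fold change of −0.74 (SE 0.19) did not pass in edgeR (adjusted p = 0.0585) but did with DESeq2 (adjusted p = 0.0178). Foxc1, the third of the cluster, had 4.06, 2.48 and 2.53 CPM in medial and 3.06 and 3.40 CPM in lateral libraries. Its groups overlapped, with a log2 fold change of −0.10 (SE 0.27) that moved to −0.36 (SE 0.19, adjusted p = 0.263) without medial library 1. Foxs1, a gene of mural cells, had 0.520, 0.315 and 0.639 CPM in medial and 0.608 and 1.04 CPM in lateral libraries, with overlap (−0.69, SE 0.41, adjusted p = 0.294).

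Foxd1, a gene of meningeal and stromal cells, was measured at 0.867 CPM (25 reads) in medial library 1 and at 0.140 and 0.334 CPM (4 and 12 reads) in medial libraries 2 and 3, against 0.274 and 0.501 CPM (18 and 27 reads) in lateral libraries. Medial library 1 was the highest of the 5 for Foxd1 and for Foxc1. The log2 fold change of Foxd1 was 0.22 (SE 0.67, adjusted p = 0.854), and −0.61 (SE 0.57, adjusted p = 0.521) without that library.

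Markers of the vessel wall and of meninges are given beside these 5 genes, and their part in the results was not tested. For comparison, 9.72% of all genes were called in edgeR, 13.2% without medial library 1 and 21.7% with DESeq2. An unadjusted p under 0.05 in edgeR was found for 32.2%. The 8 markers of endothelium summed to between 84.0 and 98.9 CPM in medial and between 111 and 127 CPM in lateral libraries, without overlap. Of these, 1 of 8 was lower in medial cortex, Cdh5, the cadherin of endothelial junctions (−0.58, SE 0.11, adjusted p = 0.0368), and 0 were higher. None of the 8 log2 fold changes was positive, and 6 of 8 had an unadjusted p under 0.05 in edgeR. Without medial library 1, 3 of 8 were lower, and DESeq2 called 6 of 8 lower. The 7 markers of mural cells summed to between 125 and 149 CPM in medial and between 128 and 135 CPM in lateral libraries. Notch3 held a large part of these sums, at 59.4, 97.9 and 82.9 CPM in medial and 60.8 and 39.9 CPM in lateral libraries. The sums therefore need not show how the other mural markers differed. None of them passed in edgeR or DESeq2, with 4 of 7 at an unadjusted p under 0.05, and 1 was lower without medial library 1, Abcc9 (−0.76, adjusted p = 0.0438). The log2 fold changes of the markers ran both ways, from −0.83 for Kcnj8 to 0.67 for Notch3, and 5 of 7 were negative. Of the 6 tested markers of meninges 0 passed in edgeR, 2 had an unadjusted p under 0.05 and 2 passed with DESeq2. Without medial library 1, 2 of the 6 were higher. Col1a1, a collagen of fibroblasts, had 97.2 CPM in medial library 1 and at most 4.62 CPM in any other.

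The 23 forkhead genes with too few reads to test held 201 of 194106 forkhead reads. Foxe3, a factor of the lens, and Foxl1, a factor of gut mesenchyme, were silent, with 0 reads in all 5 libraries. A further 14 had at most 3 reads in every library: Foxa1, Foxa2, Foxa3, Foxb1, Foxd2, Foxd3, Foxd4, Foxe1, Foxh1, Foxi1, Foxi2, Foxi3, Foxn1 and Foxr1. Among these are the factors of endoderm (Foxa1 to Foxa3), of the thymus (Foxn1), of the thyroid (Foxe1) and of neural crest (Foxd3). Counts this low are at the floor, and no difference between the regions was detectable at this depth.

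The remaining 7 had between 4 and 18 reads in at least 1 library. Foxl2, a factor of ovary and eyelid, had 6, 6 and 4 reads in medial and 18 and 7 in lateral libraries, which are the deeper ones. Foxc2, a factor of mesenchyme and lymphatic vessels, had 11, 3 and 1 reads in medial and 4 and 5 in lateral libraries, and its highest count was in medial library 1. Foxb2 had 6, 2 and 0 against 4 and 3 reads, Foxf1a 3, 0 and 1 against 5 and 4, and Foxn4, a factor of retina and spinal cord, 4, 2 and 2 against 7 and 2. Foxp3, the factor of regulatory T cells, had 2, 2 and 3 against 1 and 5 reads, and Foxr2 1, 2 and 2 against 3 and 9. GENCODE M21 places exons of Ccdc22 and Ppp1r3f over part of those of Foxp3, and whether reads from the shared parts were counted for any of these genes is not given.

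**Figure D4:**
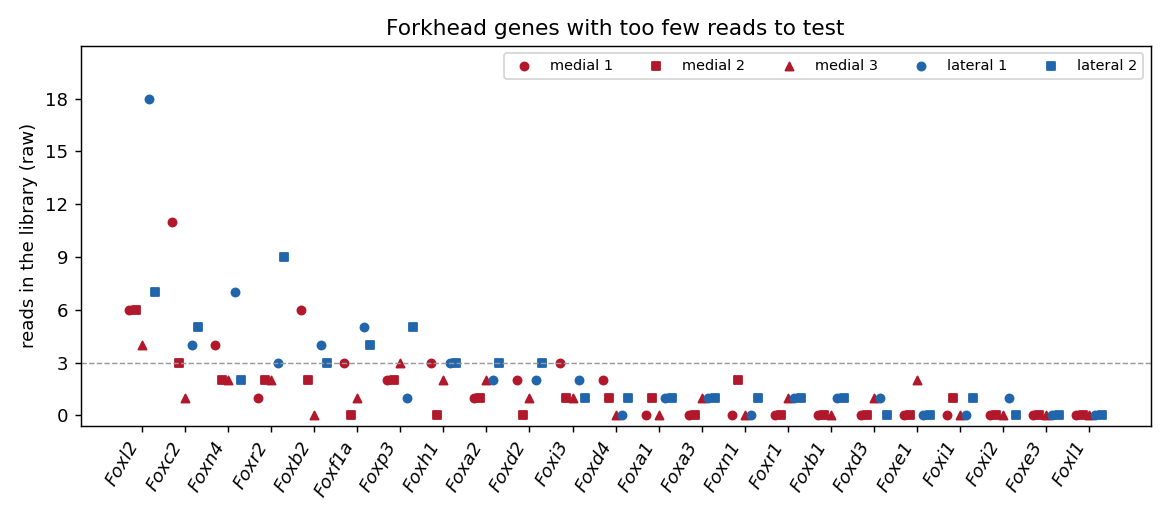
Raw reads of the 23 forkhead genes with too few reads to test, for 3 medial libraries (red) left of 2 lateral libraries (blue), in order of total reads; marker shape gives the replicate number and the dashed line marks 3 reads. Only Foxl2 and Foxc2 passed 10 reads in a library, and Foxe3 and Foxl1 had 0 reads throughout.

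Genes that act with the forkhead factors were described by list, beside a median log2 fold change of 0.01 over all genes, of which 9.72% were called. Without medial library 2 or lateral library 2 edgeR called 0 of all genes, these lists included (4035 and 2456 at an unadjusted p under 0.05). Of 14 Foxm1 target genes, 5 were higher and 0 lower in medial cortex, with a median log2 fold change of 0.56 and all 14 values positive. Those that passed were Skp2, a ubiquitin ligase subunit that clears cell-cycle inhibitors (0.52, SE 0.09, adjusted p = 0.0336), the mitotic kinesin Kif20a (0.71, SE 0.12, adjusted p = 0.0340), the mitotic kinase Aurkb (0.64), the kinetochore gene Cenpf (0.86) and Cks1b (0.52). With DESeq2 12 of 14 passed, beside 21.7% of all genes, and 5 passed in edgeR without medial library 1, beside 13.2%. Without medial library 2 DESeq2 called 8 of the 14, and without lateral library 2 it called 1.

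Foxj1 was higher but its target genes for motile cilia were not called. Of 18 listed, 14 had enough reads, and 0 passed in edgeR or limma-voom. An unadjusted p under 0.05 in edgeR was found for 7, beside 32.2% of all genes. DESeq2 called 2 higher and 1 lower, beside 21.7% of all genes called in either direction. Dnahc5 and Dnahc9, dynein heavy chains of motile cilia, had log2 fold changes of 1.42 (SE 0.34, adjusted p = 0.0538) and 0.83 (SE 0.29, adjusted p = 0.111), while Tekt2 stood at −1.02 (SE 0.37, adjusted p = 0.125), and all 3 are named here after their values were seen. The list's median was 0.55, and 0.24 without medial library 1.

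FoxO target genes moved both ways. Of 16, 2 were higher in medial cortex, Gadd45a, a stress gene (1.25, SE 0.18, adjusted p = 0.0296), and Sesn3, a sestrin (0.65, SE 0.10, adjusted p = 0.0305). Another 4 were lower: Fbxo32, a ubiquitin ligase of muscle wasting (−1.63), Bcl6, a repressor that drives neuronal differentiation (−1.67), Cited2 (−1.26) and Sesn1 (−0.69). The median was −0.35, and 4 of the 16 values were positive. Of 16 regulators of FoxO activity, 1 was lower, the insulin receptor Insr at 117 ± 3.82 CPM (SD, n = 3) in medial and 152 ± 4.12 CPM (SD, n = 2) in lateral libraries (−0.38, SE 0.07, adjusted p = 0.0371), and 0 were higher. Among 15 corepressors and partners of FoxP and other forkhead factors, 2 were lower and 0 higher. These were the Groucho family gene Tle2, at 3.61 ± 0.606 CPM (SD, n = 3) in medial and 11.3 ± 0.920 CPM (SD, n = 2) in lateral libraries (−1.64, SE 0.19, adjusted p = 0.0255), and Zfp238, now named Zbtb18, a repressor needed for cortical neurons to differentiate (−0.82, SE 0.16, adjusted p = 0.0382).

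**Figure D5:**
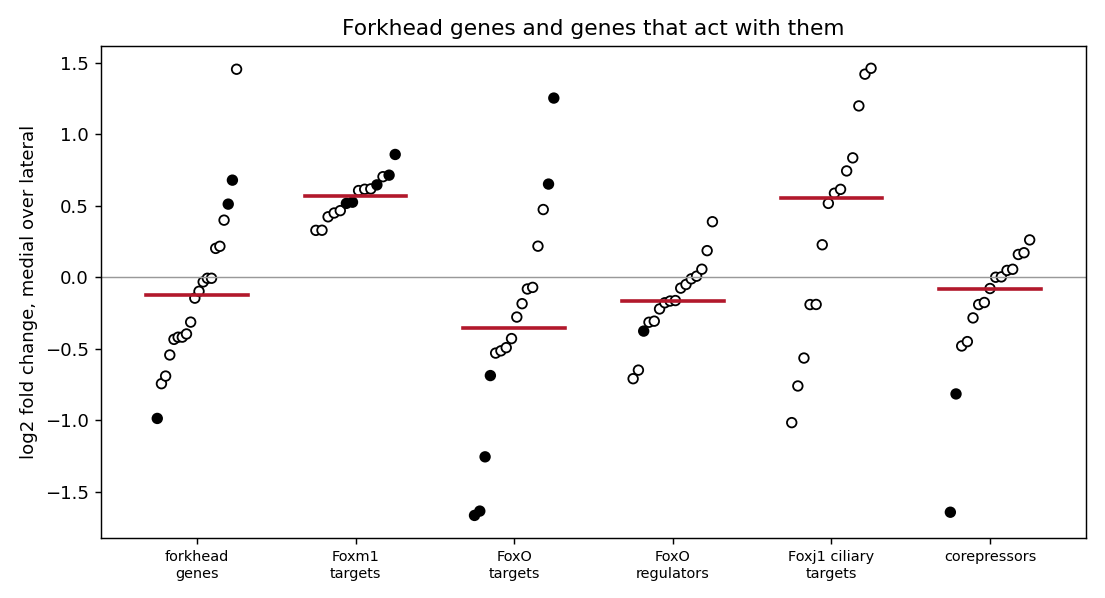
Log2 fold change, medial over lateral, of each tested gene among the forkhead genes described here and 5 lists of genes that act with them; filled points passed at an adjusted p under 0.05 in edgeR, open points did not, and red lines are medians. All 14 Foxm1 targets lay above 0, and 5 of them passed.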

How the data were processed

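The deposited files give 1 whole-number read count per gene symbol, not normalised by the authors. Per the submitters' processing notes BWA, STAR, HTSeq and the build mm9 were used. Their order, versions and the annotation are not given in the sources used here. Levels in RPKM divide CPM by the length of the longest coding transcript. The 5 classes of reads assigned to no gene (23.1% to 28.7% of each file) were left out. The test was the quasi-likelihood test of edgeR 4.0.16 (R 4.3.3) after TMM scaling, with region as its single term. FilterByExpr (count of 10, total of 15) kept 16229 of 34590 symbols. Benjamini-Hochberg adjustment ran over all genes tested and the threshold was 0.05. The SE was taken as the size of the log2 fold change over the square root of F. The test was checked on simulated data. Alternatives used DESeq2 1.42.0 and limma 3.58.1, other scalings and filters, thinned counts, blocks and each library left out.

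Every forkhead symbol was counted, and 1 tested member and a list of genes are not reported here. From each list, members past the threshold were named, at most 6, by adjusted p. Members and lists were chosen with earlier results of these data known. Symbols were matched through RefSeq names, and Dnah5, Dnah9, Dnah11 and Zbtb18 appear under older symbols. Sequences come from GENCODE M21 (GRCm38), not mm9, so no positions in the genome are given. Replicates of a group differed beyond sampling noise.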

Additional observations from a re-analysis of the deposited data

How the results depend on the processing

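Calls depended on single libraries and on the tool, while the directions of Foxj1, Foxn2 and Foxq1 held under every alternative. With 1 library left out in turn (edgeR and DESeq2), between 0 and 4 forkhead genes were higher and between 0 and 3 lower in medial cortex, beside between 0 and 1509 and between 0 and 1626 of all genes. In edgeR 0 forkhead genes passed without medial library 2, medial library 3, lateral library 1 or lateral library 2, where 8, 9, 7 and 6 had an unadjusted p under 0.05, and DESeq2 called 3, 5, 4 and 1. The same fits called 0, 490, 18 and 0 of all genes in edgeR (4035, 5131, 4050 and 2456 at an unadjusted p under 0.05) and 2006, 3108, 2172 and 664 with DESeq2. The same alternatives gave between 0 and 4 calls among FoxO regulators, 0 and 10 among FoxO targets, 0 and 13 among Foxm1 targets, 0 and 1 among Foxj1 targets and 0 and 4 among corepressors. DESeq2 over all libraries called 4 forkhead genes higher and 3 lower (1737 and 1790 of all genes), 5 FoxO regulators, 10 FoxO targets, 12 Foxm1 targets, 3 Foxj1 targets and 4 corepressors. The older form of edgeR and thinning to the smallest library each left 1 forkhead gene higher. Without a filter on low counts 0 were higher, with 496 of all genes higher and 1 Foxm1 target called. Scaling by library size alone called 1 Foxj1 target. A block by the replicate number of the labels left 0 forkhead genes higher and 0 lower, with 454 of all genes higher and 622 lower. Medial library 3 stood alone in that block and so did not inform its region effect. Deviations from the group mean of medial and lateral library 2 correlated at −0.38, and those of both libraries 1 at 0.03. With 2 lateral libraries these deviations mirror each other, so the correlations cannot decide whether the numbers pair the samples. A name tag, read from the deposited names, joins medial library 2 with lateral library 1 and medial library 3 with lateral library 2. These pairs correlated at 0.38 each, under the same limit. In a block by this tag medial library 1 stood alone and so did not inform the region effect. The tag block called 4 forkhead genes higher and 5 lower, 2634 and 2727 of all genes, 6 FoxO regulators, 12 FoxO targets, 14 Foxm1 targets, 6 Foxj1 targets and 5 corepressors. For these changes the cause was not tested.

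Signs turned only in 5 genes near 0 or with few reads, none called under any of these settings. Foxc1 was 0.0044 with the replicate block and from −0.36 to 0.026 with 1 library left out. Foxd1 was −0.034 with limma-voom, −0.70 with the tag block and from −0.69 to 0.70 with 1 library left out. Foxk1 was 0.063 with library size alone, 0.055 when thinned, 0.026 with the replicate block, 0.036 with the tag block and from −0.10 to 0.041 with 1 library left out. Foxk2 was 0.038 with library size alone. Foxo3 was 0.062 with library size alone, 0.019 with the tag block and from −0.12 to 0.11 with 1 library left out. Of 418 single-gene values under alternatives, 340 kept direction and side of the threshold, 27 lost a call, 24 gained one and 27 turned sign. Depth limits the 23 untested genes.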
